A study of Mus musculus with 6 samples.

Results

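The expression of 10 genes of the Notch pathway was followed in KMWT1 glioma cells after YY1 knockdown: 3 receptors (Notch1, Notch2, Notch3), 2 ligands (Jag1, Dll1), 2 parts of the nuclear activation complex (Rbpj, Maml1) and 3 transcription factors of the Hes and Hey family (Hes1, Hey1, Hes6). They are 10 of the 24982 gene symbols in the count tables, and all 10 had enough counts to be tested. The set was chosen by gene name with the lower levels of Hes1 and Notch3 in these same samples already in view. The differences of the 10 genes between the groups are therefore given as a description. The calls made across all genes are printed for the set further on, and nothing is read from them.

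KMWT1 is a mouse glioma cell line. RNA was taken 48 hours after transfection, from 3 samples given a control siRNA (samples 1, 2 and 3) and 3 given an siRNA pool against YY1 (samples 4, 5 and 6). YY1 is a DNA-binding zinc finger protein that acts as an activator at some genes and a repressor at others, and the series asked what its loss does to gene expression. The labels do not say whether the samples of a group were separate cultures, so the spread between them may be technical.

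Notch receptors are cell surface proteins that are activated by Jagged and Delta-like ligands on neighbouring cells. Ligand binding lets ADAM proteases and then gamma-secretase cut the receptor, and the freed intracellular domain enters the nucleus, where it joins the DNA-binding protein RBPJ and a Mastermind-like coactivator to switch on genes such as Hes1 and Hey1. The Hes and Hey proteins are repressors that hold back neuronal differentiation factors, and in the developing brain and in gliomas the pathway is known for keeping cells in a stem or progenitor state.

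Control siRNA sample 1 was the deepest with 20644057 counts in genes, and YY1 siRNA sample 6 the shallowest with 15738457. The names of the other 5 tables mark them as combined and that of sample 6 does not, with no word on what was combined. Yy1 itself, the targeted gene, stood at 126 to 128 CPM (a gene's count relative to the sample's total, after TMM scaling) in the control samples and at 77.6 to 81.2 CPM with YY1 siRNA. It fell by 0.68 on the log2 scale (SE 0.064, edgeR adjusted p 0.00154), to 62.3% of control. Sample 6 lay apart from the other 5 on the first principal component, which held 44.2% of the variance, and sample 4 lay apart on the second, which held 18.7%. The share of counts in no gene was 10.7% and 11.3% in YY1 siRNA samples 5 and 6, against 7.87% in sample 4 and 7.99% to 9.03% in the control samples. Glioma stem and progenitor markers were partly present, with 7 of 10 at 10 CPM or more and Olig2 and Prom1 without a count. The markers of endothelium, where Notch signalling is also active, stood under 1 CPM for 7 of 8 genes, all but Cdh5, with Cldn5 and Erg at 0. Pericytes and smooth muscle are known for high Notch3, and of their markers 4 of 8 stood under 1 CPM, Kcnj8 among them at 0, while Pdgfrb stood at 65.6 ± 5.63 and Cspg4 at 37.6 ± 3.44 CPM in control samples and made up most of the sum. Rgs5 was higher in every YY1 siRNA sample (1.22 ± 0.199 against 1.94 ± 0.169 CPM), as were 7.36% of all genes tested. Pdgfrb (58.6 ± 3.57 CPM) and Cspg4 (31.1 ± 6.48 CPM) had lower means with YY1 siRNA, with overlapping groups. The summed level of those 8 markers ranged over 98.2 to 116 CPM with control siRNA and 85.7 to 103 CPM with YY1 siRNA, and its part in the Notch3 values was not tested.

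Promoter sequences from RefSeq (build GRCm38.p6, the assembly of mm10) cover 250 bases before to 50 after a transcription start, and 8 of the 10 genes had an entry, 11 in all. Hes1 and Hey1 had none. Both strands were searched for TGGGAA, the core of the RBPJ site, CACNAG, the N box to which Hes repressors bind, and AANATGG with its longer form AANATGGCG, the core of the YY1 motif. The long form contains the short one. CANNTG, the E box, was searched as well. The RBPJ core was present in 2 of the 11 promoters, both of Rbpj and overlapping each other, and in 25.6% of all 32851 promoters. The N box was present in 5 of the 11, from 5 genes, and in 42.5% of all promoters. The short YY1 motif was found in 2 of the 11, of Hes6 and Maml1, and in 16.1% of all promoters, and the long form in that of Maml1 and in 2.38% of all promoters. The E box was present in 6 of the 11, from 4 genes, and in 72.3% of all promoters. These matches describe the letters only.

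The 4 sites with an RBPJ or YY1 match are shown so that the matched letters can be read in their surroundings. Each is 30 bases on the strand of its gene, with the match in capitals. The Rbpj sites lie at chr5:53590185-53590214 and chr5:53590269-53590298 on the plus strand, and their matches begin 149 and 65 bases before the first of its RefSeq starts, inside the GENCODE gene (53466152 to 53657362). The second is on the strand opposite to the gene, so its letters read TTCCCA. The Hes6 site lies at chr1:91413229-91413258 on the minus strand, with the match beginning 25 bases before the start of the downstream of its promoter entries. The Maml1 site lies at chr11:50292303-50292332 on the minus strand, with the match beginning at base 15 of the RefSeq transcript, 11 bases upstream of the start in the GENCODE annotation.
Rbpj, first site: aatgaaaaaggcTGGGAAcccgcggcgagc
Rbpj, second site: gacgctcgcattTTCCCAggacccctcctc
Hes6: taagttgctatAAAATGGgcggggtcccgc
Maml1: aaacaattttAAGATGGCGgcggcagcggc

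The promoter of Notch3 is shown whole before its start, since Notch3 is both a receptor and a known target of Notch signalling. It holds neither the RBPJ core nor a YY1 motif. The 250 bases run along the minus strand at chr17:32166891-32167140, 68.8% of them G or C, and the capitals mark its N boxes, 1 on each strand.
Notch3: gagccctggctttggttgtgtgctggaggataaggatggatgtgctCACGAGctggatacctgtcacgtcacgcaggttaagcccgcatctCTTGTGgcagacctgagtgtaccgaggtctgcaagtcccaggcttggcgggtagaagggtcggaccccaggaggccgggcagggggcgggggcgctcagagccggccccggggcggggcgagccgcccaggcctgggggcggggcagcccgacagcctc

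Notch2 had the highest level per length of the receptor genes. Levels are compared between genes after division by gene length, as CPM per kb of exon. Notch2 stood at 8.17 ± 0.440 CPM per kb in control samples (SD, n = 3), Notch1 at 1.55 ± 0.0954 and Notch3 at 0.698 ± 0.0140. Notch4, a receptor best known from endothelium and not among the 10, stood between Notch2 and Notch1 at 2.80 ± 0.344. Of the sum of all 4 receptors, Notch2 made up 61.0% to 62.5% in control samples and 57.8% to 64.6% in YY1 siRNA samples. Of the sum of the 3 receptors of the set, Notch2 made up 78.0% to 78.6% in control and 76.4% to 79.5% in YY1 siRNA samples. Notch3 made up 6.46% to 6.84% and 4.70% to 5.56%. Its smaller share with YY1 siRNA restates the lower level that was in view when the set was chosen.

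Notch1, a receptor widely used in neural progenitors, measured 23.5, 20.8 and 21.96 CPM in control samples 1, 2 and 3, and 20.7, 29.3 and 22.8 CPM in YY1 siRNA samples 4, 5 and 6. Only sample 5 lay outside the control range by more than 1 CPM, and the groups overlapped. The fitted log2 fold change of Notch1 was 0.14 (SE 0.120), and it was -0.026 without YY1 siRNA sample 5 and 0.25 without sample 4. Notch1 (chromosome 2, 26457903 to 26516663, minus strand, mm10) shares its locus with 0610009E02Rik on the other strand, which had 12 to 24 counts a sample. Whether the counting used strand is unknown here, so reads of such a pair may not have been told apart.

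Notch2 measured 93.6, 85.1 and 85.6 CPM in control samples and 66.3, 101 and 87.8 CPM in YY1 siRNA samples. Sample 4 was the lowest and sample 5 the highest of all 6, with the controls between them. The log2 fold change was -0.049 (SE 0.136), and it was 0.11 without sample 4 and -0.20 without sample 5. Notch2 spans 98013527 to 98150361 of chromosome 3 (plus strand).

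Notch3 measured 5.77, 5.55 and 5.61 CPM in control samples and 3.62, 4.57 and 3.98 CPM in YY1 siRNA samples. These levels rest on 106 to 120 counts a control sample and 61 to 86 counts a YY1 siRNA sample. All 3 YY1 siRNA values lay below all 3 control values, as in 8.91% of all genes tested. Sample 5 was the nearest to the controls. The lower level of Notch3 was in view when the set was chosen, so the values that follow describe it and test nothing. The fitted level was 71.9% of control (95% interval 58.6% to 88.2%), a log2 fold change of -0.48 (SE 0.136), which ranged from -0.58 to -0.39 when each sample was left out in turn. The gene lies on the minus strand of chromosome 17 from 32120820 to 32166852, and the annotation places Gm17276 on the other strand of it. In RNA from a whole culture, fewer cells with Notch3 and less Notch3 RNA per cell cannot be told apart. Notch4 stood at 22.5 ± 2.77 CPM with control siRNA and 20.1 ± 0.994 CPM with YY1 siRNA (edgeR adjusted p 0.539).

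In all 3 of these receptor genes and in Dll1, the YY1 siRNA samples stood in the order 4, 6, 5 from low to high. That order was noticed after the values were seen, and it occurred in 15.0% of all genes tested.

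**Figure D1:**
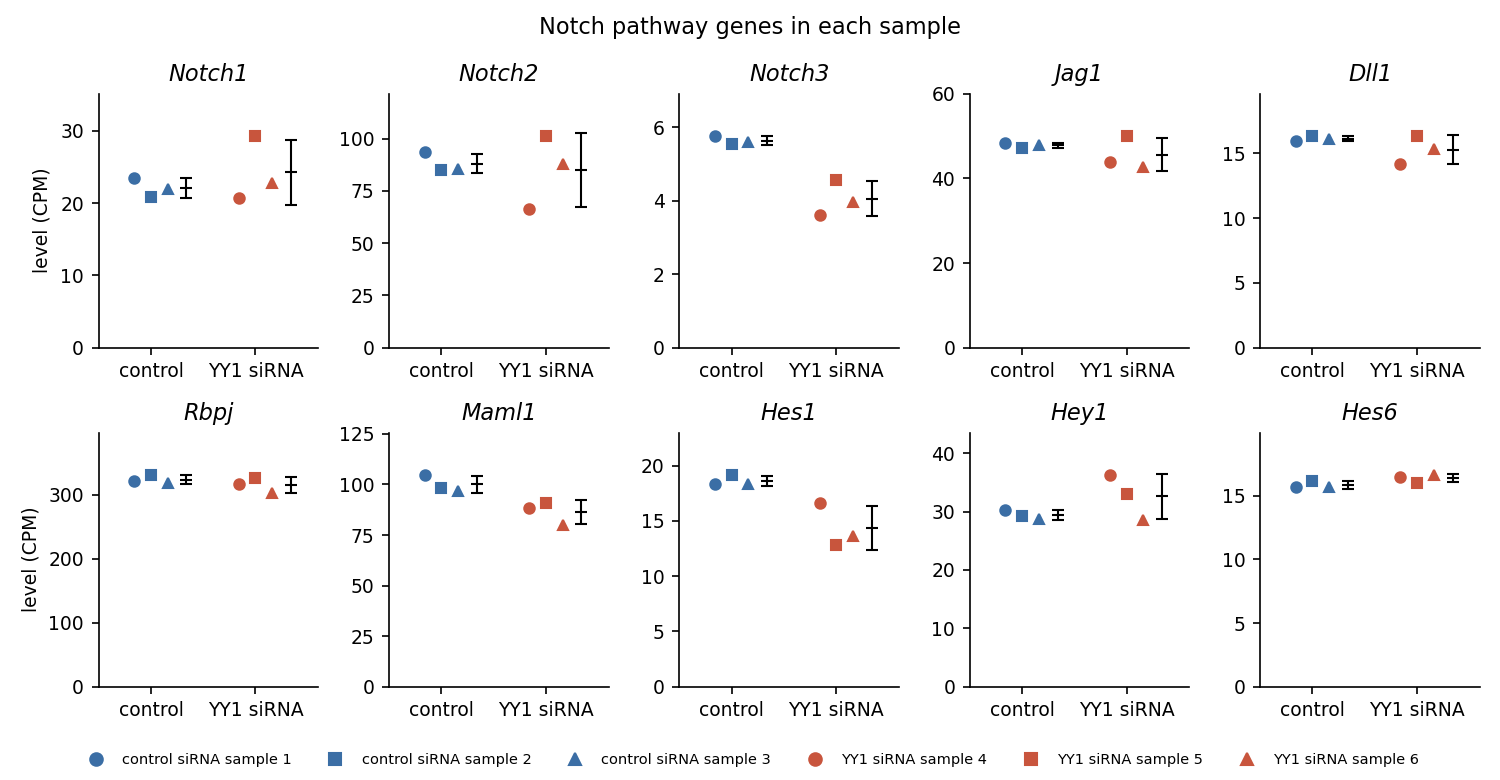
Levels of the 10 genes in CPM, 1 panel per gene with its own axis from 0, for 3 control siRNA samples (blue) and 3 YY1 siRNA samples (red). Black bars give the group mean and SD. The YY1 siRNA points lie wholly below the control points for Notch3, Maml1 and Hes1 and overlap them for the other 7 genes.

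The groups overlapped for both ligand genes. Jag1, which encodes a Jagged ligand, measured 48.4, 47.1 and 47.9 CPM in control samples and 43.9, 50.1 and 42.8 CPM in YY1 siRNA samples. Sample 5 lay above every control sample and samples 4 and 6 below, giving a log2 fold change of -0.068 (SE 0.0773, 95% interval -0.24 to 0.10). Without sample 5 it was -0.14, and without samples 4 and 6 in turn it was -0.034 and -0.032. Dll1, a Delta-like ligand of neural progenitors, measured 15.9, 16.4 and 16.1 CPM in control samples and 14.2, 16.4 and 15.3 CPM in YY1 siRNA samples. Its log2 fold change was -0.078 (SE 0.0901, interval -0.27 to 0.12), with -0.018 without sample 4 and -0.13 without sample 5. Jag1 spans 137081456 to 137116644 of chromosome 2 and Dll1 spans 15367354 to 15376872 of chromosome 17, both on the minus strand. Per kb, Jag1 (8.21 ± 0.113) and Notch2 could not be told apart by their control ranges, and Dll1 stood lower at 3.82 ± 0.0511.

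Few other ligands were present. Jag2 stood at 1.62 ± 0.345 and 1.51 ± 0.226 CPM, and Dlk2, a noncanonical ligand that lacks the receptor-binding domain of the Delta ligands, at 2.09 ± 0.252 and 1.55 ± 0.422 CPM in control and YY1 siRNA samples. Dll4, the endothelial ligand, had 2 to 8 counts a sample. Dll3 and Dlk1 had at most 1 count in any sample, where 3 counts correspond to 0.145 to 0.191 CPM.

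Rbpj and Maml1 were the most abundant of the 10 per length. Rbpj, the DNA-binding partner of the Notch intracellular domain, measured 321, 331 and 319 CPM in control samples and 317, 326 and 302 CPM in YY1 siRNA samples. The groups overlapped, with sample 6 the lowest, and the log2 fold change of -0.038 had an interval of -0.19 to 0.12. It was -0.064 without sample 5, -0.021 without control sample 2 and -0.015 without sample 6. Processed pseudogenes of Rbpj exist in the annotation, so a part of its reads may have been counted elsewhere or dropped.

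Maml1, the Mastermind-like coactivator, measured 105, 98.3 and 97.0 CPM in control samples and 88.3, 91.0 and 79.8 CPM in YY1 siRNA samples. All 3 YY1 siRNA values lay below the control values, as in 8.91% of all genes tested, with sample 6 the lowest. The fitted level was 86.4% of control (interval 77.4% to 96.5%), a log2 fold change of -0.21 (SE 0.0733) that ranged from -0.25 to -0.17 with each sample left out. The promoter of Maml1 holds the long YY1 motif shown above. That of Hes6, whose log2 fold change was 0.048, holds the short one, and that of Notch3 holds neither. Hes1 had no promoter entry, and a part of the motif in any of these values was not tested. Maml1 spans 50255634 to 50292311 of chromosome 11 (minus strand), and like Rbpj and Dll1 it has an annotated RNA gene on its other strand.

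Hes1, the repressor that is the best known direct target of Notch, measured 18.3, 19.2 and 18.4 CPM in control samples and 16.6, 12.9 and 13.6 CPM in YY1 siRNA samples. These rest on 347 to 381 counts a control sample and on 317, 242 and 209 counts in samples 4, 5 and 6. All 3 YY1 siRNA values lay below the controls, as in 8.91% of all genes tested, sample 4 by the least. The lower level of Hes1 was also in view when the set was chosen, so its fitted values are a description and no test. The fitted level was 77.4% of control (interval 66.1% to 90.5%), a log2 fold change of -0.37 (SE 0.104). It was -0.49 without sample 4 and -0.29 without sample 5. Samples 5 and 6, with the lowest Hes1, are also those with the highest share of counts in no gene, and the part of that share in the result was not tested. Hes1 spans 30064384 to 30067796 of chromosome 16 (plus strand), with no other annotated gene over it.

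Hey1, the other classic target, did not share the pattern of Hes1. It measured 30.4, 29.2 and 28.8 CPM in control samples and 36.3, 33.0 and 28.5 CPM in YY1 siRNA samples. Samples 4 and 5 lay above the controls and sample 6 just below them, giving a log2 fold change of 0.15 (SE 0.0920, interval -0.050 to 0.35). Without sample 4 it was 0.072, and without sample 6 it was 0.23. In sample 4 the log2 differences from the control mean were 0.30 for Hey1 and -0.16 for Hes1, and in sample 5 they were 0.16 and -0.53. In sample 6 both were below the control mean, at -0.045 and -0.44.

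Hes6, a family member known for opposing Hes1, was the steadiest of the 10. It measured 15.7, 16.2 and 15.7 CPM in control samples and 16.5, 16.04 and 16.6 CPM in YY1 siRNA samples, with a log2 fold change of 0.048 (interval -0.13 to 0.23), which was 0.031 without sample 6. Hey1 (chromosome 3, 8663359 to 8667256) and Hes6 (chromosome 1, 91411483 to 91414038) are both on the minus strand with no annotated gene over them. The biological coefficient of variation of Hes6, edgeR's estimate of the spread between samples beyond counting error, was 0.0582 and lay at percentile 0.288 of all genes tested. Notch2 (0.118, percentile 91.5) and Notch1 (0.0985, percentile 84.2) lay near the other end. In all 10 genes the YY1 siRNA samples spread more than the control samples on the log2 scale, as did 71.8% of all genes tested.

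**Figure D2:**
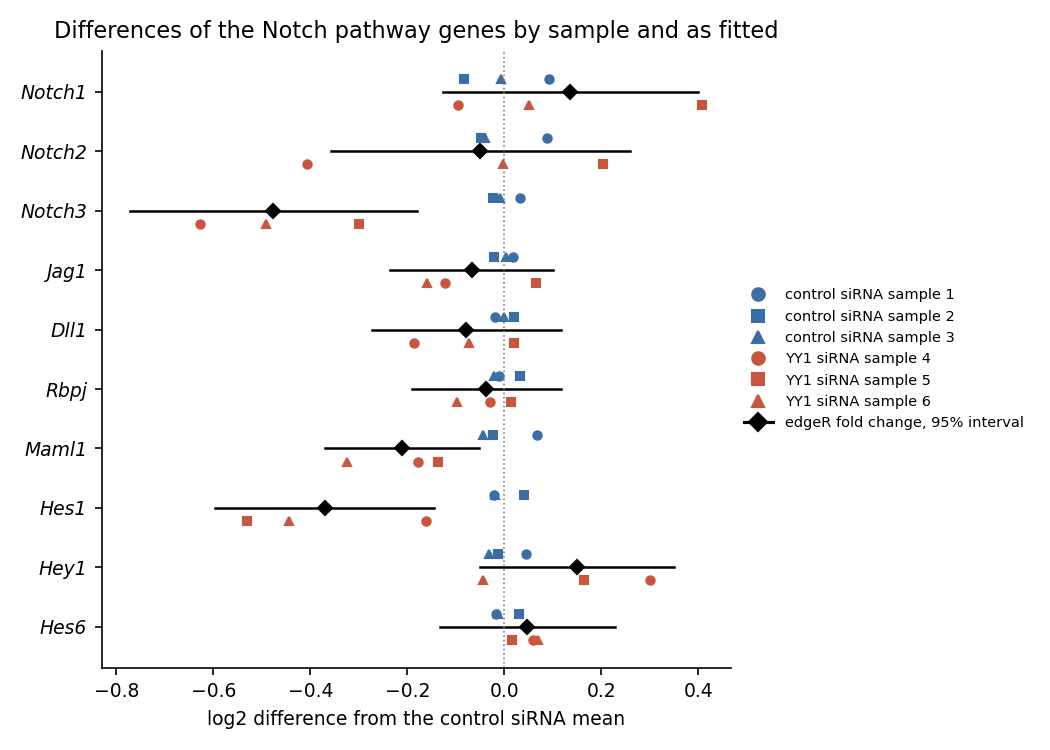
Log2 difference of each sample from the control siRNA mean (blue control, red YY1 siRNA) for the 10 genes, with the edgeR log2 fold change as a black diamond and its 95% interval as a line. The diamonds of Notch3 (-0.48) and Hes1 (-0.37) lie lowest, the genes whose lower levels were in view when the set was chosen, and the widest red scatter is that of Notch1 and Notch2.

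Per length, the 3 Hes and Hey genes stood close together in control samples, at 9.14 ± 0.230 (Hes1), 9.02 ± 0.250 (Hey1) and 8.77 ± 0.160 CPM per kb (Hes6), and neighbours in that order overlapped. Above them were Rbpj at 25.4 ± 0.508 and Maml1 at 18.1 ± 0.752, and below them Jag1, Notch2, Dll1, Notch1 and Notch3, in that order. With the length of the longest transcript in place of all exons the order was the same, while Rbpj stood at 59.0, since its exons span 12.75 kb and its longest transcript 5.485 kb. In YY1 siRNA samples the order of the means was the same but for Hes1 and Notch2. Hes1 moved from place 3 to place 7 at 7.06 ± 0.976, and Notch2 (7.90 ± 1.64) stood just above Jag1 (7.83 ± 0.670). The ranges of Hes1 (6.31 to 8.16), Jag1 (7.35 to 8.59) and Notch2 (6.15 to 9.40) overlapped there, so these genes could not be told apart. The move of Hes1 restates the lower level that was in view when the set was chosen.

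**Figure D3:**
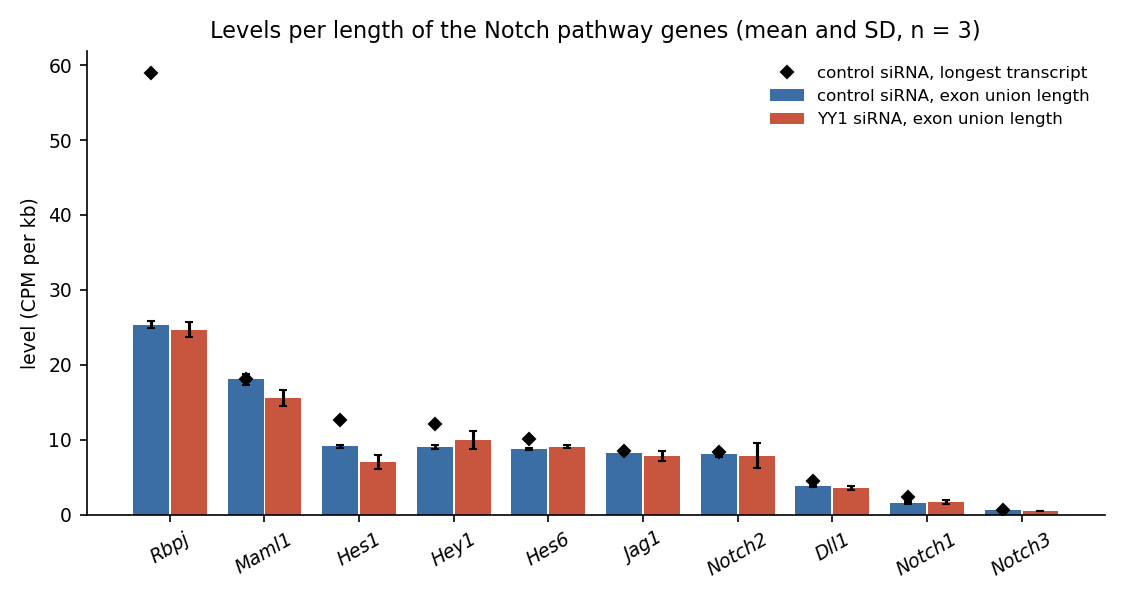
Level of the 10 genes in CPM per kb of exon, mean and SD of 3 control siRNA (blue) and 3 YY1 siRNA samples (red), ordered by the control mean, with black diamonds for control levels per kb of the longest transcript. Rbpj (25.4) and Maml1 (18.1) lead, and Notch3 (0.698) is lowest.

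None of the other members of the Hes and Hey family reached 1 CPM. Hes7 stood at 0.579 ± 0.0970 CPM with control siRNA and 0.618 ± 0.0554 CPM with YY1 siRNA. Hey2 had 1 to 5 counts a sample and Hes3 at most 2. Hes5, the usual partner of Hes1 in neural stem cells, had 0 counts in every sample, as did Heyl and Helt, which allows up to 0.145 to 0.191 CPM at these depths. Hes2 had 1 count in all.

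Read as calls, 0 of the 10 genes passed edgeR's quasi-likelihood test at an adjusted p of 0.05, where 1 of 12148 genes (0.00823%) passed, Yy1 itself. DESeq2 called 0 of the 10 (0.148% of all genes) and limma-voom 0 (0.00823%). Notch3, Hes1 and Maml1, 3 of the 10, had YY1 siRNA samples all below the control samples (8.91% of all genes), and 0 had them all above (7.36% of all genes). The set was chosen with this contrast in view, so nothing is read from these counts. The median log2 fold change of the 10 was -0.058, with 7 below 0, beside a median of 0.00070 over all genes. It was -0.026 without sample 4 and -0.14 without sample 5.

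The wider pathway, 95 other genes listed by role, was read from the same fit. None of the 75 that were tested passed edgeR over all genes, and DESeq2 and limma-voom called 0 as well. At an unadjusted p under 0.05, 6 of the 75 were lower (5.46% of all genes) and 3 higher (5.38% of all genes). These counts moved with single samples, from 2 lower and 2 higher without control sample 1 to 12 lower and 6 higher without YY1 siRNA sample 4. Without control sample 2 there were 4 lower and 0 higher. The shares of all genes without each sample are not given here, so nothing is read from these shifts. Of the 75, 48 had a fold change below 0 (64.0%, against 49.8% of all genes) and the median was -0.065. Without YY1 siRNA sample 6 the median was -0.011 and 42 of 75 lay below 0 (56.0%). Over all genes the median was then -0.0025, with 51.0% below 0. Without each of the other samples the median of the 75 ranged from -0.084 to -0.047. Every YY1 siRNA value lay below the controls in 13 of the 75 and above them in 2, against 8.91% and 7.36% of all genes.

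Among the proteases, which cut the receptor, Ncstn measured 138, 134 and 127 CPM in control samples and 122, 115 and 105 CPM in YY1 siRNA samples. It encodes nicastrin of gamma-secretase, and its fitted difference was -0.22 in log2 (SE 0.0748, edgeR adjusted p 0.348). Aph1b, another subunit gene, stood at 14.6 ± 0.918 and 12.4 ± 1.15 CPM (edgeR adjusted p 0.434). Every YY1 siRNA value lay below the controls in both genes, as in 8.91% of all genes tested. Ncstn overlaps Copa on the other strand, as Dtx3l does Parp9, Spen does Zbtb17 and Snw1 does Slirp, so their counts are uncertain where strand was not used. The 2 genes of this role with the highest CPM, not divided by length, were Furin (336 ± 17.1 and 325 ± 39.6 CPM), which makes the first cut in the Golgi, and Adam10 (230 ± 18.3 and 246 ± 14.1 CPM), which makes the ligand-triggered cut, and the groups overlapped in both. Of the 10 proteases tested, 6 had a fold change below 0.

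Among the glycosyltransferases that decorate the receptor, Gxylt2, a xylosyltransferase acting on its EGF repeats, had the largest fold change of the 75 in size. It measured 12.7, 12.3 and 11.1 CPM in control samples and 8.91, 8.07 and 7.83 CPM in YY1 siRNA samples. Every YY1 siRNA value was below every control value, as in 8.91% of all genes tested. The fitted difference of Gxylt2 was -0.53 in log2 (SE 0.106, edgeR adjusted p 0.147). Without the filter on low counts the edgeR adjusted p was 0.0181, and over its 13 alternatives it ranged from 0.0181 to 0.564, with log2 fold changes of -0.59 to -0.50. Xxylt1 (56.0 ± 3.15 and 52.1 ± 6.86 CPM) and Pofut1 (35.1 ± 1.11 and 32.0 ± 1.17 CPM), the O-fucosyltransferase needed for ligand binding, are given as the 2 with the highest CPM, with no correction for length, as are the pairs that close the next paragraphs. The groups overlapped in Xxylt1, while in Pofut1 every YY1 siRNA value lay below the controls, as in 8.91% of all genes tested. Of the 8 glycosyltransferases tested, 4 lay below 0.

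Of the ubiquitin ligases and trafficking factors, 11 of 18 tested lay below 0. Dtx3l, of the Deltex family, stood at 25.2 ± 3.84 and 20.0 ± 1.42 CPM (edgeR adjusted p 0.317). Dtx4 stood at 17.8 ± 0.600 and 15.2 ± 1.57 CPM (edgeR adjusted p 0.424). In both genes every YY1 siRNA value lay below the controls, as in 8.91% of all genes tested. Mib1, the ligase that drives ligand endocytosis, measured 130, 126 and 121 CPM in control samples and 124, 167 and 148 CPM in YY1 siRNA samples. Its 2 high values were in samples 5 and 6, and the groups overlapped (log2 fold change 0.22, edgeR adjusted p 0.455). Nedd4 (1904 ± 98.1 and 1776 ± 130 CPM) and Epn1, an epsin (178 ± 10.2 and 172 ± 13.7 CPM), had overlapping groups.

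Among the nuclear complex genes other than Rbpj and Maml1, Kat2b, a histone acetyltransferase, stood at 17.9 ± 0.690 and 20.8 ± 1.96 CPM (edgeR adjusted p 0.420). Every YY1 siRNA value lay above the controls, as in 7.36% of all genes tested. The margin was slight, with YY1 siRNA sample 6 at 18.67 CPM and control sample 1 at 18.66 CPM. Snw1 (130 ± 2.22 and 125 ± 7.21 CPM) and the acetyltransferase Ep300 (91.0 ± 2.77 and 91.6 ± 16.9 CPM) had overlapping groups. Ep300 measured 76.1, 110 and 89.0 CPM in samples 4, 5 and 6. That is the order of Notch1, Notch2 and Notch3, though not of Notch4, and it occurred in 15.0% of all genes tested. Of the 7 tested, 4 lay below 0.

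Of the 17 corepressors tested, 14 lay below 0, against 49.8% of all genes, with a median of -0.078. Some of the 14 lay close to 0, such as Ncor1 at -0.022, and the role as a whole was not tested. Spen, the corepressor that binds RBPJ when Notch is silent, measured 70.1, 74.3 and 71.3 CPM in control samples and 53.6, 68.8 and 53.9 CPM in YY1 siRNA samples (log2 fold change -0.29, SE 0.0944, edgeR adjusted p 0.317). All 3 YY1 siRNA values of Spen lay below the controls, as in 8.91% of all genes tested, with sample 5 near the controls. Bend6 stood at 14.1 ± 1.5 and 16.8 ± 1.5 CPM (edgeR adjusted p 0.421). Aes, now named Tle5, a truncated Groucho protein (503 ± 19.0 and 471 ± 62.4 CPM), and Ncor1 (207 ± 8.53 and 203 ± 14.1 CPM) had overlapping groups.

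Of the 9 other tested genes that Notch can activate, 5 lay below 0 and 4 above. Ccnd1, which encodes cyclin D1, measured 889, 886 and 883 CPM in control samples and 838, 809 and 745 CPM in YY1 siRNA samples (log2 fold change -0.15, edgeR adjusted p 0.507). Cdkn1a, the p21 gene, stood at 510 ± 5.78 and 464 ± 61.2 CPM. Nrarp, a feedback inhibitor of the pathway named here after its values were seen, stood at 3.48 ± 0.469 and 4.10 ± 0.651 CPM (log2 fold change 0.24, edgeR adjusted p 0.598). Fabp7 had no count in any sample, and Gfap had 0 to 2. Among the proneural factors that Hes1 is known to repress, Insm1 stood at 10.4 ± 1.47 and 9.48 ± 0.781 CPM, with overlapping groups. Neurog1, Neurog3, Neurod1, Neurod4 and Atoh1 had no counts, and Neurog2 had 1 in all.

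**Figure D4:**
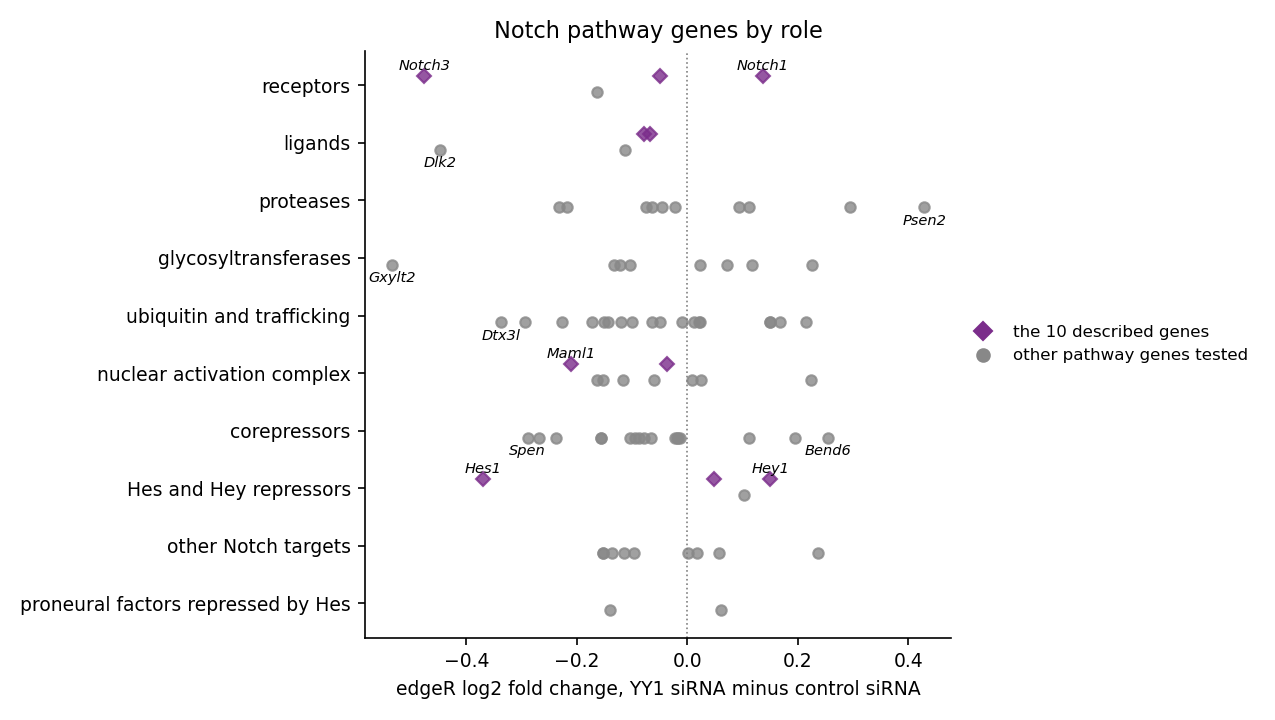
EdgeR log2 fold change (YY1 siRNA minus control siRNA) of each tested Notch pathway gene, 1 row per role, with purple diamonds for the 10 described genes and grey circles for the 75 others. Gxylt2 (-0.53) lies farthest left and Psen2 (0.43), labelled after its value was seen, farthest right.

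The genes outside the pathway whose sample profile was most like that of Hes1 were Tctn2, Pccb and Nol4. Likeness was the mean absolute difference in log2 CPM, each gene centred on its own mean over the 6 samples, over 12063 genes. It was 0.0165 for Tctn2, a gene of the ciliary transition zone, which measured 20.3, 21.2 and 19.9 CPM in control samples and 17.7, 13.9 and 14.8 CPM in YY1 siRNA samples. Pccb, a subunit of propionyl-CoA carboxylase with 1.86 to 2.86 CPM a sample, differed by 0.0275 and Nol4 by 0.0369. Closest to Notch3 were Tnxb, which encodes a tenascin (0.0463, at 1.68 to 2.54 CPM a sample), Letmd1 (0.0547) and Dock6 (0.0621). Both groups enter the likeness, so it includes the lower levels for which Hes1 and Notch3 were noted. At low levels such as those of Pccb and Tnxb, counting error also enters it. Letmd1 measured 14.7, 14.8 and 13.3 CPM in control samples and 9.60, 11.0 and 10.2 CPM in YY1 siRNA samples, the order of Notch3 within the YY1 siRNA group.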

How the data were processed

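The authors deposited 1 table of raw read counts per gene symbol for each of 6 samples, whole numbers with no normalization as far as the values show. STAR 2.6.1a and edgeR 3.30.0 were used on build mm10, per the submitters' processing notes, while the counting program, annotation and strand setting remain not given in the sources used here. The 2 rows that name no gene (7.87% to 11.3% and 1.01% to 1.15% of a sample's counts) were left out. Counts were tested with edgeR 4.0.16 in R 4.3.3 (filterByExpr, TMM, robust quasi-likelihood F test, two-sided, Benjamini-Hochberg over 12148 genes, threshold 0.05), after a check on artificial counts with known changes. DESeq2 1.42.0 and limma-voom (limma 3.58.1) were alternatives, with those named in the closing section. Exon lengths came from GENCODE M21. The lowest chi-square per degree of freedom between samples of a group was 3.07, so no pair was a copy. At the depths of these samples, 3 counts equal 0.145 to 0.191 CPM.

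The members and gene lists were chosen with earlier results of these data known. Besides the 10 genes and Yy1, the rule names the 2 most abundant other genes of each role, those with an unadjusted p under 0.05, and the 3 genes most like Hes1 and Notch3. The result of 1 pathway gene that the rule names is not reported here. The genes at or near 0 counts are pathway genes under the filter. Psen2, Nrarp, 0610009E02Rik and the marker genes are named outside the rule, after their values were seen.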

Additional observations from a re-analysis of the deposited data

Results flagged for a closer look

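Reads that fell in no gene lie outside the comparisons above. They made up 10.7% of the counts of YY1 siRNA sample 5 and 11.3% of those of sample 6, above all 3 control siRNA samples (7.99% to 9.03%). Their part in the values of the 10 genes was not tested.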

How the results depend on the processing

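No paired analysis was possible because the groups share no sample number. None of the 10 genes was called under 7 other settings or without each sample in turn. The sign of their fold changes differed from the reported one in 3 of 130 values: Notch2 with sample weights (0.023) and without YY1 siRNA sample 4 (0.11), and Notch1 without sample 5 (-0.026). Other pathway genes called numbered 1 without the filter on low counts, Gxylt2, and 0 otherwise. Over all genes, calls came to 83 without that filter, 22 with sample weights, 19 with DESeq2 and 7 with library size alone, and to between 1 and 41 without each sample (41 without YY1 siRNA sample 4, 3 without sample 6, 2 without control siRNA sample 3). For these counts the cause was not tested. Yy1 passed under every one of these settings (log2 fold change -0.71 to -0.67). Of 26 other named pathway genes, 6 changed sign in 13 of 337 values: Ep300 with library size alone (-0.011) and limma-voom (-0.0067), Jag2 (0.037) and Ncor1 (0.0032) with sample weights, and the rest without a sample. Those last ranged from -0.27 to 0.035 for Jag2, -0.080 to 0.022 for Ncor1, -0.021 to 0.22 for Hes7, -0.14 to 0.13 for Ep300, -0.10 to 0.046 for Furin and -0.099 to 0.0018 for Epn1. In the 150 bases nearest the promoter's end, N boxes were present in 3 of the 11 promoters, from 3 of the 8 genes, and in 24.0% of all promoters. E boxes were present there in 1 of the 11, from 1 gene, and in 47.2% of all promoters. With 61 to 120 counts a sample, Notch3 has the least precise counts of the 10 genes.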
